A study of Mus musculus with 16 samples.

Results

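The nuclear-encoded subunits of oxidative phosphorylation were followed in RNA from the dentate gyrus of mice. A gene was counted as a member if its name began with Nduf followed by a, b, c, s or v and a digit (complex I), was Sdha, Sdhb, Sdhc or Sdhd (complex II), or began with Uqcr (complex III), with Cox and a digit from 4 to 8 (complex IV) or with Atp5 (complex V). This gave 84 of the 24421 gene names in the tables, of which 37 fell in complex I, 4 in complex II, 8 in complex III, 18 in complex IV and 17 in complex V. The rule reads names only, but the set was proposed with earlier results of these data known. It also took in some genes that do not code for a classical subunit of the complex they are listed under: Ndufa4 is known as a subunit of cytochrome c oxidase, Ndufa4l2 is a relative of it, Cox7a2l acts in joining complexes III and IV, and Atp5s and Atp5sl are related proteins rather than parts of ATP synthase. Ndufab1, assembly factors and the genes of the mitochondrial genome were outside the rule.

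The mice were males of the C57BL/6 strain aged 1 year, and the 4 groups combined genotype with voluntary running. The p16 WT CTL group was wild-type and sedentary, and the p16 KO CTL group was sedentary and carried the p16Ink4a-/- null allele, which leaves p19Arf functional. The p16 WT RUN and p16 KO RUN groups were of the same genotypes and had free access to a running wheel for 12 days. Each group had 4 libraries, and each library was made from the dissected dentate gyri of 2 mice, so that a value is the mean of a pair of animals. The allele was made in the FVB strain and backcrossed to C57BL/6. In dissected tissue, fewer cells of a type cannot be told apart from less RNA per cell.

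Oxidative phosphorylation takes place in the inner mitochondrial membrane. Complexes I and II pass electrons from NADH and succinate to ubiquinone, complex III passes them on to cytochrome c, and complex IV hands them to oxygen, while complexes I, III and IV pump protons and complex V, the ATP synthase, uses the proton gradient to make ATP. Most subunits are coded in the nucleus and a few in mitochondrial DNA. In the dentate gyrus, where neural stem cells are kept, the quiescent stem cell is known to rely more on glycolysis, and its neuronal progeny on oxidative phosphorylation.

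The tables give abundance as TPM, in which the values of a library are corrected for transcript length and sum to a common total, and no read counts, so the counting error of a single gene is not known. Coverage relative to the average library ran from 0.621 to 1.95, with the highest values in p16 WT CTL replicate 2 and p16 KO CTL replicate 7 (1.68). It separated the running from the sedentary libraries without overlap, at 0.621 to 0.893 against 0.900 to 1.95, and its part in the comparisons of running with sedentary mice cannot be told apart. The transcript of Cdkn2a, the locus of the deleted gene, was at most 0.586 TPM and was listed at 0 in 8 of 16 libraries, so it could not serve as a check of the genotype. All 6 markers of dentate granule neurons were detected, with summed levels between 426 and 1217 TPM. A list of 11 long noncoding RNAs known to stay in the nucleus, among them Malat1 and Meg3, summed to 1228 TPM in p16 WT CTL replicate 2, 784 TPM in p16 KO CTL replicate 6 and 710 TPM in p16 KO CTL replicate 7, against 2073 to 2767 TPM in the other 13 libraries. Between groups the median log2 fold change of this list was 0.75 in p16 KO RUN against p16 KO CTL and -0.55 in p16 KO CTL against p16 WT CTL. In the former 2 of the 11 were called higher and 2 lower, and Malat1 gave 1.62 ± 0.51. These 3 libraries stand apart, and the counts of members called in Sets A to D and in the interaction are given below with and without them, while the additive fits, the other gene lists, the length classes and the cell type markers are given with all libraries only.

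The members were abundant. Of the 84, 71 had a mean of at least 100 TPM over the 16 libraries and 8 had a mean below 10 TPM. Together they took 3.09% ± 0.225 (SD, n = 4) of all TPM in sedentary wild-type libraries and 3.34% ± 0.231 in sedentary knockout libraries. After running the shares were 3.08% ± 0.0924 for wild-type and 3.07% ± 0.0987 for knockout libraries. The spread was wider in both sedentary groups than in both running groups. In p16 KO CTL the 4 libraries stood at 3.04%, 3.45%, 3.57% and 3.29%, and in p16 WT CTL at 3.04%, 3.42%, 2.91% and 2.99%. The running libraries lay between 2.97% and 3.16% in p16 WT RUN and between 2.97% and 3.20% in p16 KO RUN. The ranges of all 4 groups overlapped.

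By complex, the summed level in p16 WT CTL was 9934 ± 709 TPM for complex I, 941 ± 53.9 TPM for complex II, 3218 ± 216 TPM for complex III, 7884 ± 744 TPM for complex IV and 8896 ± 535 TPM for complex V. In p16 KO CTL the same sums were 10760 ± 755, 986 ± 53.6, 3480 ± 250.1, 8692 ± 728 and 9464 ± 548 TPM. For each of the 5 complexes the p16 KO CTL mean was the highest of the 4 groups, and for each its range overlapped that of every other group.

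**Figure D1:**
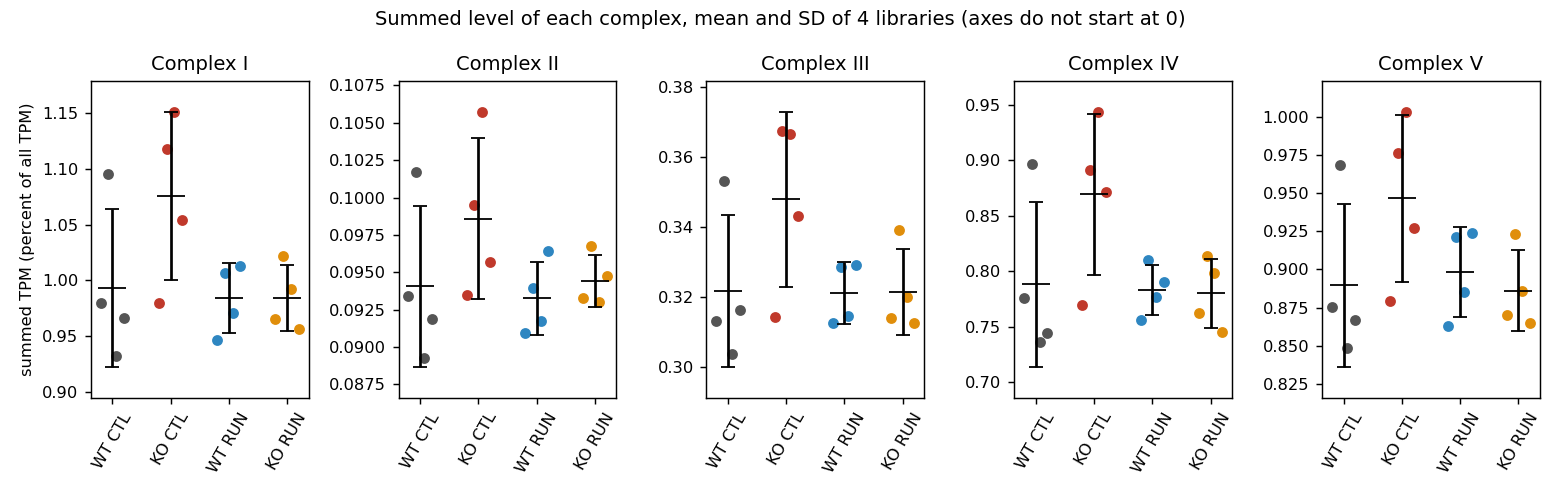
Summed TPM of the members of each complex, as a percent of all TPM (vertical axes, which do not start at 0), in the 4 groups. Points are libraries, and the bars give the mean and SD of 4 libraries. The p16 KO CTL mean is the highest in each panel, at 1.08% for complex I. Replicate 5 of p16 KO CTL lies near the level of the other groups in each panel, and in complex II so does replicate 8, at 0.0957%.

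The leading members were subunits of the catalytic head in complex V and accessory subunits in the lists of complexes I, III and IV. Atp5b, the catalytic subunit of ATP synthase, had the highest mean, 1537 TPM, and Atp5a1, its partner in the catalytic head, had 1012 TPM. In complex IV the highest were Cox4i1, at 1304 TPM, and Cox8a, at 1110 TPM. In complex III they were Uqcrh, the hinge protein, at 722 TPM and Uqcr11 at 568 TPM, and in the list of complex I they were Ndufa4, at 953 TPM, and Ndufb9, at 648 TPM. All members of complex II were lower: Sdha, the flavoprotein that oxidises succinate, had a mean of 418 TPM, the iron-sulphur subunit Sdhb 224 TPM, and the membrane anchors Sdhc and Sdhd 167 and 142 TPM. TPM is corrected for length, so these levels can be set side by side.

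Paired isoforms differed widely in level. Cox6a1 averaged 1001 TPM and Cox6a2, the form of heart and skeletal muscle, 5.16 TPM. Cox7a2 averaged 414 TPM and its muscle form Cox7a1 3.72 TPM. Cox7b averaged 273 TPM and Cox7b2, known mainly from testis, 2.09 TPM. Cox6b1 averaged 780 TPM and the testis form Cox6b2 5.76 TPM, while Ndufa4l2 averaged 3.76 TPM beside Ndufa4 and Cox4i2, the form induced by low oxygen in lung, averaged 2.11 TPM. Cox8b, the muscle form of Cox8a in mice, had a mean of 0.913 TPM and was listed at 0 in 5 of 16 libraries, and Cox8c was listed at 0 in all 16 and was the only member left untested. The 3 genes of the membrane ring of ATP synthase, whose mature proteins are the same, averaged 776 TPM for Atp5g3, 319 TPM for Atp5g1 and 221 TPM for Atp5g2.

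Genes for these subunits are known to be under nuclear respiratory factor 1 (NRF1), whose core site is 10 letters long, shown in capitals in the runs below, with any base at the sixth place. RefSeq promoter windows of GRCm38.p6, from 250 bases before to 50 bases after the start, were found for 69 of the 84 members, 66 by symbol and 3 by an older name. Searched on both strands, these letters were in 16 of the 69 windows (23.2%), against 8.85% of the 12380 windows of other tested genes and 4.78% of all 27025 windows. Of the windows of members lower in p16 KO RUN than in p16 KO CTL, a comparison given below, 4 of 23 held them, and of the windows of members not called there 12 of 46 did. The letters AAGATGGCG of the YY1 site were in 7 of 69 windows (10.1%) against 2.64% of other tested genes, the ETS core CCGGAAG in 15 (21.7%) against 15.3%, and the letters AAGGTCA of the oestrogen-related receptors in 8 (11.6%) against 3.40%. A match is a match of letters and not a measured site. The runs below show the matches of Ndufa5 and Atp5h, which were lower in that comparison, the 3 matches of Ndufb4, which was lower too, and a match of Sdha, which was not called. Each run is given 5′ to 3′ on the strand of the gene, which for all 4 genes is the minus strand, with the NRF1 letters in capitals. Ndufa5 lies on chr6:24527697-24527726, Atp5h on chr11:115420041-115420070, Ndufb4 on chr16:37654540-37654569, chr16:37654428-37654457 and chr16:37654371-37654400, and Sdha on chr13:74350319-74350348.
Ndufa5: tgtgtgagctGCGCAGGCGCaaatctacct
Atp5h: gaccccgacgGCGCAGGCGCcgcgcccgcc
Ndufb4 match 1: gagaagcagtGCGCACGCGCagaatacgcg
Ndufb4 match 2: ccttgtgcgcGCGCAGGCGCacttcctgag
Ndufb4 match 3: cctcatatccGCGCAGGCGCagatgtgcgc
Sdha: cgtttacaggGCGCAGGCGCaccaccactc

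For 79 of the 83 tested members the library of highest scaled level was p16 WT CTL replicate 2 or p16 KO CTL replicate 6 or 7, where 27.2% of all tested genes had their highest level. In the TPM as deposited these libraries were highest for 66 members and for 15.4% of all tested genes. Replicate 7 of p16 KO CTL alone was highest for 56 members, against 11.9% of all tested genes, and replicate 6 for 14. The typical member deviated from its mean over the 16 libraries by +0.30 on the log2 scale in p16 KO CTL replicate 7, +0.20 in replicate 6, +0.18 in p16 WT CTL replicate 2 and +0.09 in p16 KO CTL replicate 8. In p16 KO CTL replicate 5 it deviated by -0.06, which lies within the range of the running libraries, -0.12 to +0.03. The lowest was p16 WT CTL replicate 3, at -0.15, which was the lowest library for 35 members. The 3 libraries with the highest sums of members were also those with the lowest sums of nuclear RNA, while p16 KO CTL replicate 8 combined the next highest member sum with 2345 TPM of nuclear RNA, an ordinary value. That library had the lowest summed level of granule neuron markers, 426 TPM, and the highest of oligodendrocyte markers, 2426 TPM. The part of nuclear RNA or of cell makeup in the results below was not tested beyond the fits that are given.

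**Figure D2:**
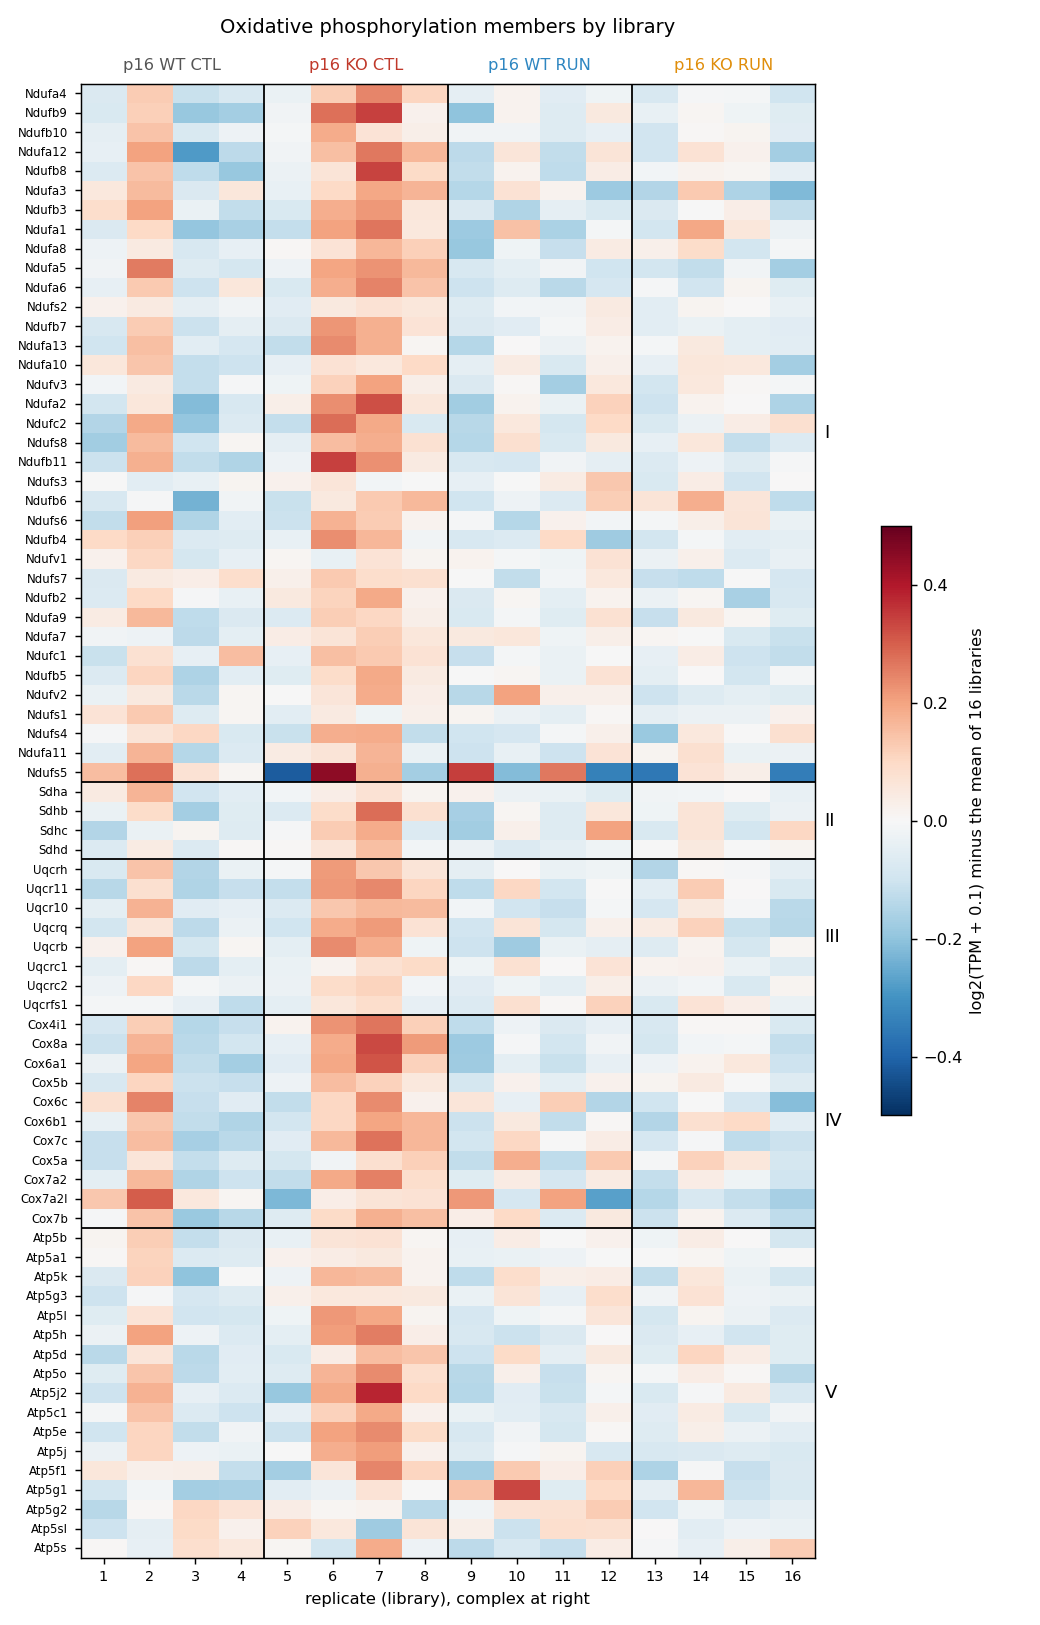
Each row is a member with a mean of at least 10 TPM, ordered within its complex by mean level, and each column a library of the group named above it. Colour gives log2(TPM + 0.1) minus the mean of the row over 16 libraries, red for higher and blue for lower. The columns of p16 WT CTL replicate 2 and p16 KO CTL replicates 6 and 7 are red for most rows in all 5 complexes, and 66 of 83 tested members had their highest deposited TPM in them.

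**Figure D3:**
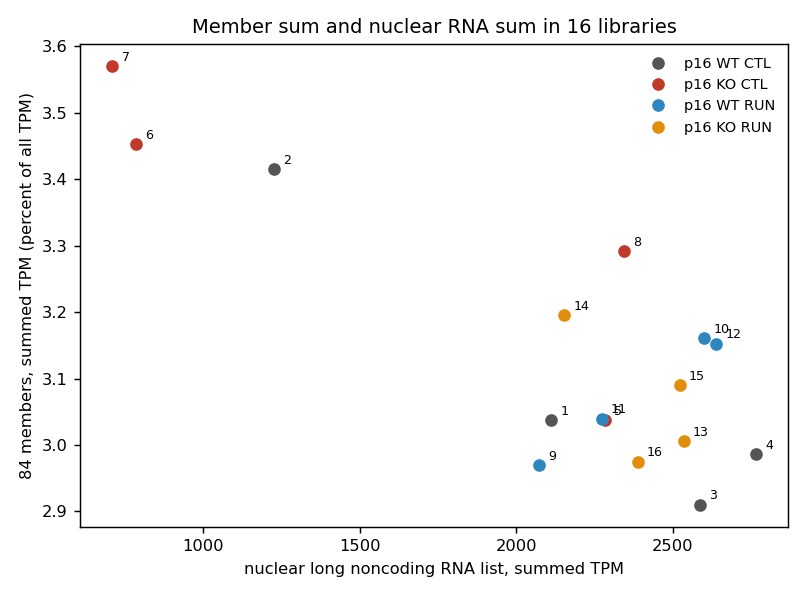
Summed TPM of the 84 members as a percent of all TPM (vertical axis) against the summed TPM of 11 nuclear long noncoding RNAs (horizontal axis) in 16 libraries, numbered by replicate and coloured by group. The 3 sedentary libraries (2, 6 and 7) lie apart at 710 to 1228 TPM of nuclear RNA with 3.42% to 3.57% of TPM in the members, and the other 13 libraries lie between 2.91% and 3.29%.

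The effect of running in knockout mice (Set A, p16 KO RUN against p16 KO CTL) gave 26 members lower at an unadjusted p. Most of them were lower by small amounts. The number fell without p16 KO CTL replicate 6 or 7, the libraries of this comparison that stand apart. It also fell without p16 KO RUN replicate 13, 15 or 16. At an unadjusted limma p under 0.05, the threshold of the study, 26 of 83 members were lower and 0 higher, and the median log2 fold change of the members was -0.18, against 0.02 over all tested genes. Of all 17317 tested genes, 7.76% were called lower and 10.7% higher. No member had an adjusted p under 0.05, and the smallest was 0.167, while 0.0173% of all tested genes passed. With TPM as deposited, without the scaling, 2500 genes were higher and 709 lower, and 0 and 20 members. Of the 83 members, 81 had a value below 0, against 46.8% of all tested genes. Complex I gave 16 of 37 members lower (43.2%), complex III 2 of 8, complex IV 5 of 17 and complex V 3 of 17, while in complex II 0 of 4 were called. The median was -0.18 for complex I, -0.12 for complex II, -0.18 for complex III, -0.22 for complex IV and -0.16 for complex V.

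Ndufs7, the iron-sulphur subunit of complex I next to the ubiquinone site, had the smallest p. It stood at 208, 224, 217 and 216 TPM in p16 KO CTL and at 189, 187, 204 and 193 TPM in p16 KO RUN. Every p16 KO CTL library was above every p16 KO RUN library, and the log2 fold change was -0.23 ± 0.06 (SE; limma, adjusted p = 0.167). The exact two-sided permutation test gave 0.0286, the smallest p that 35 splits allow. Ndufa5, an accessory subunit of the matrix arm, stood at 318, 372, 379 and 362 TPM in p16 KO CTL and at 304, 297, 320 and 288 TPM in p16 KO RUN. Here the lowest sedentary library lay just inside the running range, and the log2 fold change was -0.31 ± 0.09 (adjusted p = 0.174, exact permutation p = 0.0571). Ndufb2, of the membrane arm, fell by 0.22 ± 0.08 on the log2 scale (adjusted p = 0.212, exact permutation p = 0.0571), with 201 to 226 TPM in p16 KO CTL and 177 to 199.6 TPM in p16 KO RUN. Ndufv2, an iron-sulphur subunit of the NADH-oxidising module, lay between 173 and 197 TPM in p16 KO CTL and between 161 and 167 TPM in p16 KO RUN, with no overlap and a log2 fold change of -0.21 ± 0.07 (adjusted p = 0.216, exact permutation p = 0.0286).

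In complex III, Uqcrh was at 715, 835, 791 and 753 TPM in p16 KO CTL and at 651, 723, 718 and 696 TPM in p16 KO RUN. The groups overlapped by 1 sedentary library, and Uqcrh fell by 0.22 ± 0.09 on the log2 scale (adjusted p = 0.246), while Uqcr10 gave -0.21 ± 0.09 (adjusted p = 0.266). In complex IV, Cox7c was at 574, 668, 721 and 670 TPM and at 563, 595, 547 and 555 TPM, with replicate 5 of p16 KO CTL within the running range and a log2 fold change of -0.28 ± 0.10 (adjusted p = 0.216, exact permutation p = 0.0571). Cox8a was at 1073, 1257, 1389 and 1279 TPM in p16 KO CTL and at 1041, 1096, 1096 and 1017 TPM in p16 KO RUN (-0.29 ± 0.11, adjusted p = 0.229, exact permutation p = 0.0857). Cox4i1, the subunit through which ATP is known to inhibit the enzyme, was at 1316, 1517, 1563 and 1412 TPM and at 1229, 1305, 1306 and 1232 TPM (-0.26 ± 0.09, adjusted p = 0.229, exact permutation p = 0.0857). Both complex IV genes had replicate 5 as their lowest sedentary library. Cox7b fell by 0.23 ± 0.09 on the log2 scale (adjusted p = 0.235). The remaining complex IV call was Cox8b, at 1.90, 1.27, 1.70 and 0.756 TPM in p16 KO CTL and at 1.06 and 1.17 TPM in replicates 13 and 16 of p16 KO RUN, with the other two listed at 0.

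In complex V, Atp5j, the coupling factor of the stalk, was at 361, 409, 417 and 366 TPM in p16 KO CTL and within 341 to 345 TPM in p16 KO RUN. The groups did not overlap, and the log2 fold change was -0.24 ± 0.08 (adjusted p = 0.213, exact permutation p = 0.0286). Atp5h, another stalk subunit, fell by 0.24 ± 0.10 on the log2 scale (adjusted p = 0.242) and Atp5l by 0.21 ± 0.09 (adjusted p = 0.268). The catalytic subunit Atp5b gave -0.11 ± 0.08 (adjusted p = 0.451) and Atp5a1 -0.10 ± 0.06 (adjusted p = 0.386), so the highest members of the complex were not called. In complex II, Sdha gave -0.11 ± 0.06, Sdhb -0.17 ± 0.10, Sdhc -0.13 ± 0.09 and Sdhd -0.10 ± 0.07. On the scaled values 3 members had groups that did not overlap (Ndufs7, Ndufv2 and Atp5j), a share of members to be read against 4.55% of all tested genes, and 0 had them in the other direction, against 5.84%. In the deposited TPM 8 members did not overlap, all lower, against 2.56% of all tested genes, and 0 higher, against 7.46%.

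The Set A count changed when single libraries were left out. Without p16 KO CTL replicate 5 it was 60 lower and 1 higher, where 11.4% of all tested genes were lower and 27.3% called in either direction. This fit leaves p16 KO CTL replicates 6, 7 and 8, of which replicates 6 and 7 are low in nuclear RNA. In it 1 member, Ndufa5, passed an adjusted p of 0.05, and how many of all tested genes passed is not given here. Without p16 KO CTL replicate 6 it was 8 lower, where 5.08% of all tested genes were lower and 11.9% called in either direction, and without p16 KO CTL replicate 7 it was 9 (4.65% and 11.7%). Without p16 KO RUN replicate 13, 15 or 16 it was 11 (5.43% and 13.2%), 12 (5.95% and 14.1%) or 7 (5.64% and 13.2%). The medians of the members in these 5 fits were -0.15, -0.13, -0.17, -0.18 and -0.16. Without p16 KO CTL replicate 8 the count was 19 lower (8.27% and 21%), and without p16 KO RUN replicate 14 it was 24 lower (5.85% and 14.4%). Without the libraries low in nuclear RNA, a choice made after seeing the data that here takes out p16 KO CTL replicates 6 and 7 and leaves 4 libraries against 2, 3 members were lower (Atp5sl, Cox6a2 and Ndufs7), 70 of 83 were below 0 and the median was -0.057, where 3.57% of all tested genes were lower and 8.5% called in either direction. With the nuclear RNA score as a covariate 4 were lower (Ndufs7, Ndufa5, Atp5j and Cox6a2) and the median was -0.065, where 4.5% of all tested genes were lower and 10.6% called in either direction. The share of members called lower was thus near that of all genes in both fits, while 70 and 72 of 83 values were below 0. Calls over all tested genes fell as well, from 18.5% in either direction with all libraries. Ndufs7 and Cox6a2 were thus called in both fits, with log2 fold changes of -0.15 ± 0.06 and -0.16 ± 0.06 for Ndufs7 and of -0.76 ± 0.28 and -0.70 ± 0.29 for Cox6a2, which was not called in Set A with all libraries.

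**Figure D4:**
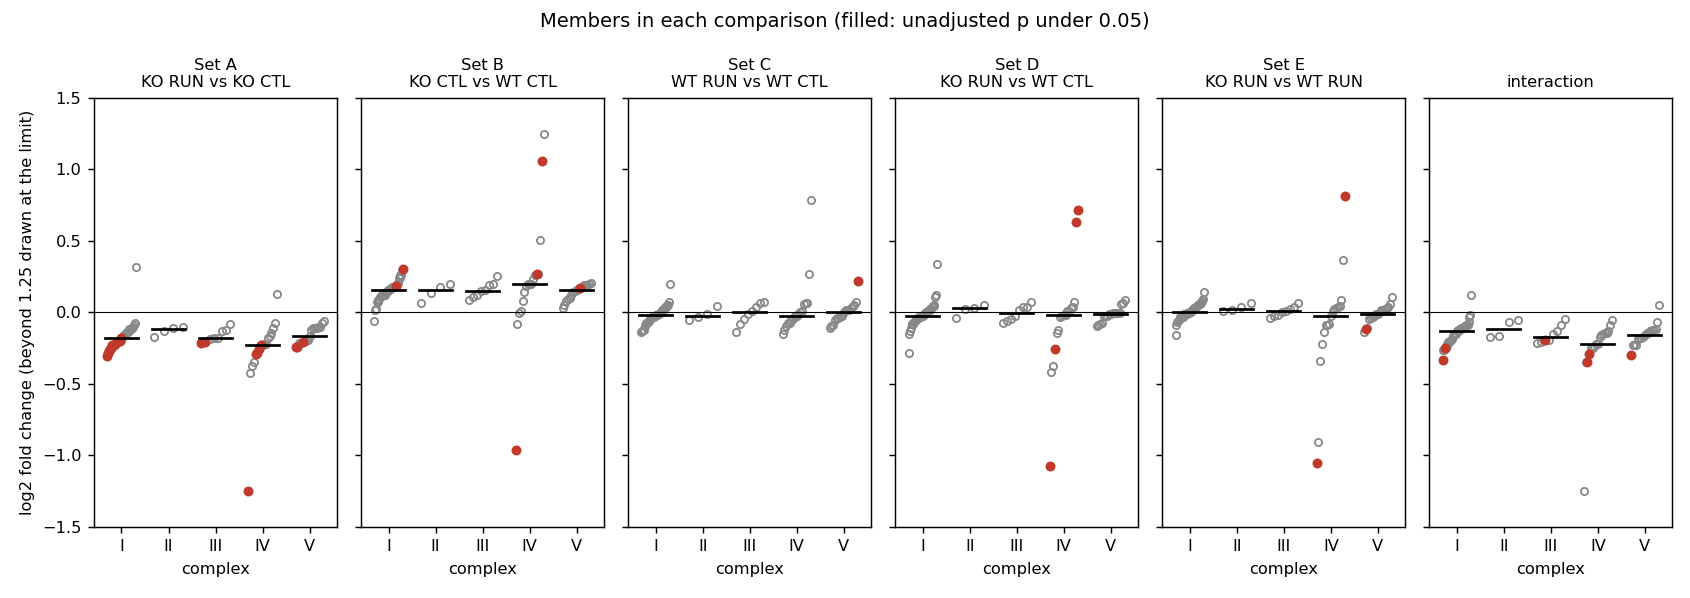
Log2 fold change (vertical axis) of the 83 tested members in 5 comparisons and in the interaction of genotype with running, by complex (horizontal axis). Each circle is a gene, filled where the unadjusted limma p was under 0.05, and the bar is the median of the complex. Values past the printed limit (Cox8b, whose libraries include zeros) are drawn at it. Medians of the 5 complexes lie between -0.22 and -0.12 in Set A and between 0.15 and 0.20 in Set B, and near 0 in Sets C, D and E.

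The effect of the genotype in sedentary mice (Set B, in which p16 KO CTL was compared with p16 WT CTL) ran the other way, and rests on the same p16 KO CTL libraries as Set A. In Set B 5 members were higher and 1 lower at an unadjusted p under 0.05, where 3.05% of all tested genes were higher and 3.59% lower, beside 6.02% and 1.20% of the members. Of the 83 members 79 had a value above 0, against 47.7% of all tested genes, and the median was 0.16 against -0.01. The smallest adjusted p was 0.624. In the deposited TPM 2 members, Atp5g3 and Ndufa7, did not overlap, both higher, against 1.03% of all tested genes. With TPM as deposited, all genes split as 336 higher and 777 lower, against 529 and 622 after scaling. The medians by complex ran from 0.15 in complex III to 0.20 in complex IV. The count of either sign was 43 without p16 WT CTL replicate 2 (17.5% of all tested genes called) and 40 without p16 KO CTL replicate 5 (13.5%), but 0 without p16 KO CTL replicate 7 (3.2%). It was 1 without p16 KO CTL replicate 6 (3.92%) or p16 WT CTL replicate 1 (3.5%) or 4 (4.23%), and 2 without p16 WT CTL replicate 3 (4.12%). Without the 3 libraries low in nuclear RNA it was 6 higher and 1 lower, with 6.67% of all tested genes called in either direction, the median was 0.11 and 76 of 83 values were above 0. With the nuclear RNA score as a covariate it was 2 higher and 1 lower (4.56% called in either direction), the median was 0.062 and 70 of 83 values were above 0.

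The members called in Set B were of complexes I, IV and V. Ndufa2, an accessory subunit of the matrix arm, was at 232, 257, 213 and 234 TPM in p16 WT CTL and at 252, 291, 309 and 257 TPM in p16 KO CTL. Only p16 WT CTL replicate 2 reached the knockout range, and the log2 fold change was 0.30 ± 0.11 (exact permutation p = 0.0857). Ndufa7 was at 178 to 193 TPM and 200 to 212 TPM, which overlapped only after scaling, with a log2 fold change of 0.19 ± 0.07 (exact permutation p = 0.0571). Cox4i1 gave 0.27 ± 0.12 (exact permutation p = 0.0857) and Atp5g3 0.17 ± 0.07 (exact permutation p = 0.0571), from 722 to 773 TPM up to 789 to 805 TPM. The other two calls, of opposite sign, were the rarely expressed isoforms Cox7b2 and Cox6a2.

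Cox6a2 and Cox7b2 were called by genotype both in sedentary and in running mice, at an unadjusted limma p under 0.05. Cox6a2 was at 7.07, 9.47, 4.22 and 6.29 TPM in p16 WT CTL and at 5.43, 2.55, 1.43 and 4.87 TPM in p16 KO CTL. In the running groups it was at 10.1, 5.78, 9.95 and 2.96 TPM in p16 WT RUN and at 3.44, 3.65, 3.51 and 1.94 TPM in p16 KO RUN. Knockout libraries were lower in each pair of groups, with 1 or more libraries overlapping. The log2 fold change was -0.97 ± 0.41 in Set B (exact permutation p = 0.114) and -1.05 ± 0.38 in Set E, p16 KO RUN against p16 WT RUN (exact permutation p = 0.114), comparisons that share no library. The call ended in Set B without p16 WT CTL replicate 1, 2 or 4 or p16 KO CTL replicate 6 or 7, and in Set E without p16 WT RUN replicate 9 or 11 or p16 KO RUN replicate 16, with values from -1.197 to -0.62 in Set B and from -1.41 to -0.84 in Set E. With the nuclear RNA score as a covariate the Set B call also ended, while the Set E call held. The Set B call ended too without the 3 libraries low in nuclear RNA, without a filter and without the variance trend.

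Cox7b2 was at 1.30, 1.32, 1.06 and 1.95 TPM in the wild-type sedentary libraries and at 3.76, 1.54, 5.78 and 1.95 TPM in the knockout ones. Among running mice it was at 0.858, 1.09, 1.22 and 2.36 TPM in wild-type and at 2.15, 2.29, 2.69 and 2.20 TPM in knockout libraries. Knockout libraries reached higher values, and the ranges overlapped in both states. It was higher by 1.06 ± 0.40 in Set B (exact permutation p = 0.0571) and by 0.81 ± 0.28 in Set E (exact permutation p = 0.114) on the log2 scale. The Set B call ended without p16 WT CTL replicate 1 or 3 or p16 KO CTL replicate 5 or 7, with values from 0.71 to 1.34, and the Set E call held without each library in turn. With the nuclear RNA score as a covariate the Set B call of Cox7b2 also ended, while its Set E call held. Without the 3 libraries low in nuclear RNA the Set B call held, at 0.95 ± 0.38. In an additive fit of genotype and running over all 16 libraries, added after seeing the data, the genotype value was 0.94 ± 0.25 for Cox7b2 (adjusted p = 0.679) and -1.01 ± 0.29 for Cox6a2 (adjusted p = 0.696). That fit called 5 members higher and 1 lower for genotype, against 3.74% and 3.18% of all tested genes. Neither gene passed the adjustment over all genes, and both are at levels where the number of reads behind a value is not known. Some GABAergic neurons are known to use Cox6a2. The 6 markers of GABAergic neurons summed to 807 to 1285 TPM (wild-type) and 981 to 1247 TPM (knockout) in sedentary mice. In running mice they summed to 996 to 1082 TPM and 880 to 1083 TPM, and the ranges overlapped in all groups. Of the 6, 2 were higher in Set B, where 3.05% of all tested genes were, and 0 were called in Set E. The sum does not single out the neurons that use Cox6a2, and their part was not tested.

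**Figure D5:**
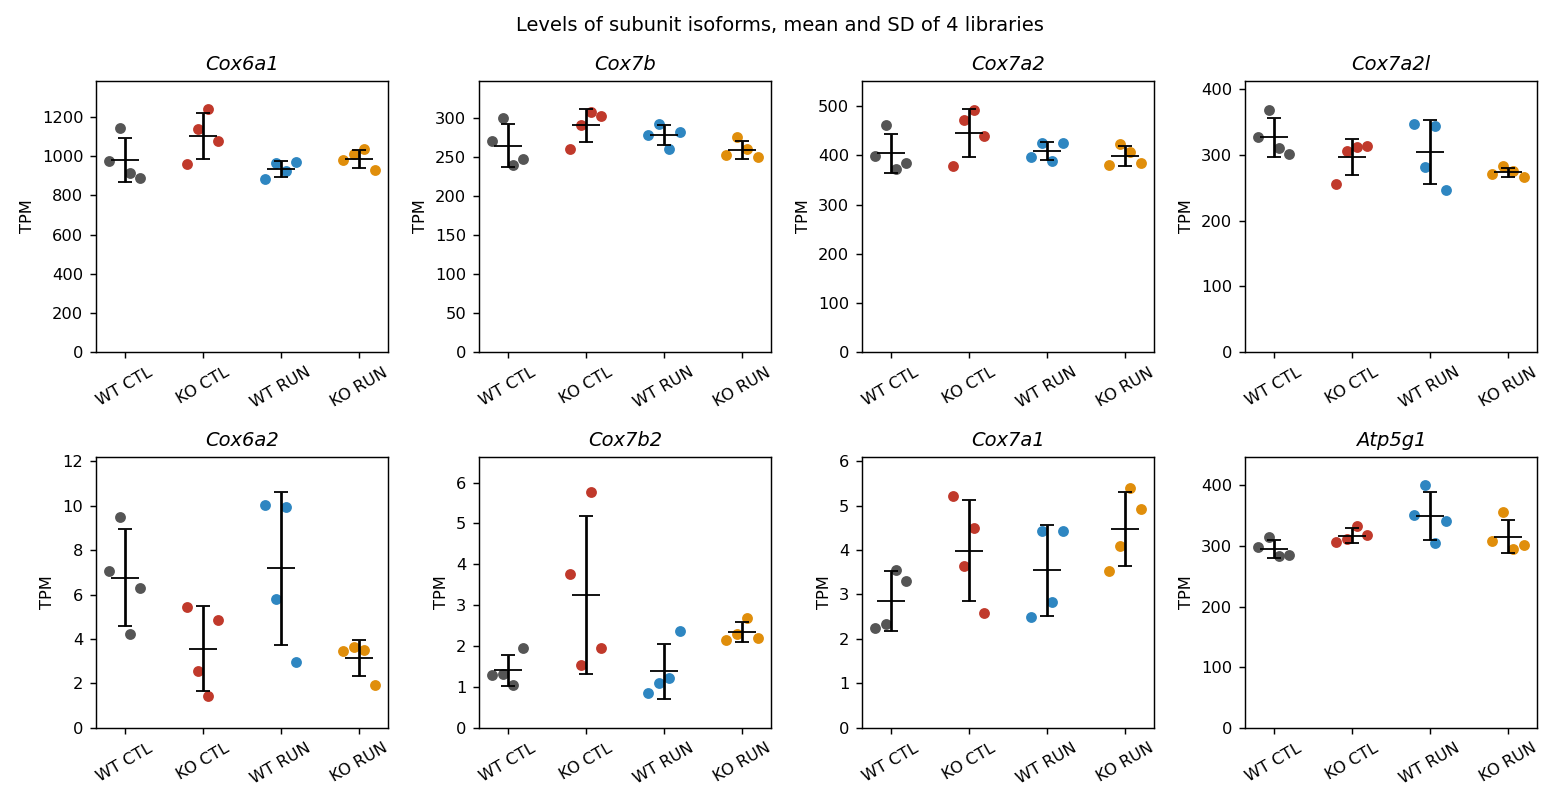
TPM (vertical axes, from 0) of 8 subunit isoforms in the 4 groups. Points are libraries and bars give the mean and SD of 4 libraries, with the main form of each of the first 3 pairs above its rarer form. Cox6a2 averages 6.76 and 7.19 TPM in the wild-type groups against 3.57 and 3.13 TPM in the knockout groups, and Cox7b2 1.40 and 1.38 TPM against 3.25 and 2.33 TPM.

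Running in wild-type mice (Set C, p16 WT RUN against p16 WT CTL) called 1 member, Atp5g1, where 2.67% of all tested genes were higher and 2.14% lower. Atp5g1 was at 299, 315, 283 and 284 TPM in p16 WT CTL and at 351, 400, 304 and 340 TPM in p16 WT RUN. The groups overlapped in 1 running library, and the log2 fold change was 0.22 ± 0.10 (adjusted p = 0.985, exact permutation p = 0.0857). The median of the members was -0.02, and 33 of 83 were above 0, against 50.9% of all tested genes. Without p16 WT CTL replicate 2 the median was 0.06 and 66 of 83 were above 0. In that fit 2 were called (Atp5g1 and Cox7c, 5.91% of all tested genes called in either direction). None was called without p16 WT CTL replicate 1 or p16 WT RUN replicate 9, 10 or 12, where 3.1% to 5.01% of all tested genes were. Without p16 WT CTL replicate 3 or 4 the calls were 2 and 1 other members, all lower. In these fits 2.07% and 2.4% of all tested genes were lower, near the share of the members.

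Running knockout against sedentary wild-type mice (Set D, p16 KO RUN against p16 WT CTL) called 2 members higher and 2 lower, where 4.91% of all tested genes were higher and 3.75% lower. All 4 are in complex IV. Cox6a2 gave -1.08 ± 0.29 (adjusted p = 0.320, exact permutation p = 0.0286) and Cox7b2 0.71 ± 0.20 (adjusted p = 0.348, exact permutation p = 0.0286), each with groups that did not overlap, as in 3.26% of all tested genes in the higher and 2.45% in the lower direction. Cox7a1 was at 2.24, 2.33, 3.56 and 3.30 TPM in p16 WT CTL and at 3.52, 4.10, 5.38 and 4.93 TPM in p16 KO RUN, with a small overlap and a log2 fold change of 0.63 ± 0.19 (adjusted p = 0.389, exact permutation p = 0.0571). Cox7a2l was at 327, 369, 310 and 301 TPM in p16 WT CTL and at 270, 283, 275 and 266 TPM in p16 KO RUN, with no overlap and a log2 fold change of -0.26 ± 0.09 (adjusted p = 0.440, exact permutation p = 0.0286). The smallest adjusted p was 0.320, and the median of the members was -0.02. Without p16 WT CTL replicate 2, which is also the fit without the libraries low in nuclear RNA, 9 members were higher and 2 lower, the median was 0.06 and 11.2% of all tested genes were called.

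Cox7a2l and the complex I subunit Ndufs5 also varied within groups. In p16 WT RUN, replicates 9 and 11 had 347 and 344 TPM of Cox7a2l and replicates 10 and 12 had 282 and 247 TPM. Ndufs5 had 40.2 and 38.1 TPM in replicates 9 and 11 and 27.2 and 25.0 TPM in replicates 10 and 12. In p16 KO CTL, Ndufs5 was at 23.7, 43.2, 35.8 and 28.1 TPM, the widest relative spread of the members with a mean of at least 10 TPM.

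Between the running groups (Set E, p16 KO RUN against p16 WT RUN), 1 member was higher, Cox7b2, and 2 were lower, Cox6a2 and Atp5g2, where 2.1% of all tested genes were higher and 1.77% lower. Atp5g2 was at 219, 233, 233 and 241 TPM in p16 WT RUN and at 207, 218, 211 and 214 TPM in p16 KO RUN, with a log2 fold change of -0.11 ± 0.05 (exact permutation p = 0.0571). The Atp5g2 call ended without p16 WT RUN replicate 10, 11 or 12 or p16 KO RUN replicate 13, 15 or 16. It also ended with the nuclear RNA score as a covariate, with all 16 libraries in 1 fit and without the variance trend. The median of the members was 0.00427 and 44 of 83 were above 0, against 51.2% of all tested genes. No member had an adjusted p below 1.00 after rounding to 3 digits. Sets A, D and E share the p16 KO RUN libraries, Sets B, C and D those of p16 WT CTL, Sets A and B those of p16 KO CTL and Sets C and E those of p16 WT RUN, so their values are not independent.

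The test of the interaction, whether running changed a member differently in knockout and wild-type mice, called 0 members higher and 6 lower, where 3% of all tested genes were higher and 2.47% lower, and the smallest adjusted p was 0.798. The median was -0.15, and 81 of 83 values were below 0, against 46.8% of all tested genes. Ndufa7 had the smallest p, with a log2 fold change of -0.18 ± 0.06 by running in knockout mice, 0.07 ± 0.06 in wild-type mice and -0.25 ± 0.08 for the difference (adjusted p = 0.798). Cox7c differed by -0.34 ± 0.14 (adjusted p = 0.798), Ndufa2 by -0.33 ± 0.14, Atp5g1 by -0.30 ± 0.13, Uqcrc1, a core subunit of complex III, by -0.19 ± 0.09 and Cox7b by -0.29 ± 0.13. The count was 30 without p16 WT CTL replicate 2 (13.7% of all tested genes called), 29 without p16 KO CTL replicate 5 (11.4%) and between 1 and 9 in the other fits without a library, where 3.53% to 7.8% of all tested genes were called. It was 4 without the 3 libraries low in nuclear RNA (7.28% of all tested genes called, 3.49% lower), with a median of -0.11, where Ndufa7, Cox7c and Cox7b were called again. With the nuclear RNA score as a covariate it was 1, Ndufa7 (4.32% called, 2.08% lower), the median was -0.077 and 14 of 83 values were above 0.

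Averaged over both genotypes, in the additive fit, 13 of 83 members were lower with running and 0 higher, where 7.93% of all tested genes were lower and 9.54% higher, and the smallest adjusted p was 0.130. Of the 13, 8 were in complex I, led by Ndufs7 (-0.14 ± 0.04, adjusted p = 0.130), Ndufa5 (-0.20 ± 0.07) and Ndufa6 (-0.17 ± 0.06).

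Other mitochondrial genes were counted beside the members in Set A, where 7.76% of all tested genes were lower and 10.7% higher. Of 43 assembly factors of the complexes, 4 were lower (9.30%) and 0 higher, with a median of -0.11. Of 77 mitochondrial ribosomal proteins, which make the subunits coded in mitochondrial DNA, 17 were lower and 0 higher (22.1% lower), with a median of -0.11. Of 16 genes of the citric acid cycle and pyruvate dehydrogenase, 0 were called, with a median of -0.09. Of 9 carriers and cytochrome c genes, 1 was higher and 1 lower, and of 13 regulators of mitochondrial gene expression, 3 were higher and 0 lower, with a median of -0.02. Of 85 cytosolic ribosomal proteins, which have no part in respiration, 50 were lower (58.8%) and 1 higher, with a median of -0.27. Lower values in Set A were thus also seen outside the mitochondrial lists.

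In Set B, where 3.05% of all tested genes were higher and 3.59% lower, 4 of the 43 assembly factors were higher and 0 lower (median 0.05), 8 of the 77 mitochondrial ribosomal proteins were higher and 1 lower (median 0.08), 1 of the 13 regulators was higher, and 0 of the 16 citric acid cycle genes and 0 of the 9 carriers were called (medians 0.11 and 0.13). Of the 85 cytosolic ribosomal proteins 2 were higher (median 0.17). In Set C, where 2.14% of all tested genes were lower, 3 assembly factors, 3 mitochondrial ribosomal proteins and 6 cytosolic ribosomal proteins were lower, and in Set E, where 2.1% were higher and 1.77% lower, 3 assembly factors, 7 mitochondrial ribosomal proteins and 4 cytosolic ribosomal proteins were called in either direction.

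The members share short transcripts. The longest coding transcript of a member in GENCODE vM21 had a median length of 863 bases over all 84, and 50 of the 84 were under 1000 bases, against a median of 3105 bases and 5.58% under 1000 bases for the 14934 tested genes with a length. In Set A, 15.8% of the 784 other tested genes under 1000 bases were lower and 6.25% higher, with a median of -0.10, while of the 14101 genes of 1000 bases or more 7.74% were lower and 10.8% higher, with a median of 0.01. In Set B the medians of these classes were 0.09 and -0.01. The medians of short transcripts outside the member list had the same sign as those of the members, and the part of length in the result was not tested.

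Markers of cell types were counted in Set A as well, where 7.76% of all tested genes were lower and 10.7% higher. In a list of 6, 1 call is a share of 16.7%, so single calls say little. Of 6 oligodendrocyte markers, 4 were lower in p16 KO RUN and 0 higher, with sums of 1458 to 2426 TPM in p16 KO CTL and 1132 to 1484 TPM in p16 KO RUN. Of 6 astrocyte markers and 6 microglia markers, 2 each were lower, with astrocyte sums of 1987 to 3024 TPM and 2024 to 2415 TPM and microglia sums of 395 to 568 TPM and 370.1 to 448 TPM. Of 6 endothelial markers 2 were higher, with sums of 63.6 to 125 TPM and 110 to 165 TPM, and of 6 granule neuron markers 1 was higher, with sums of 426 to 911 TPM and 807 to 1217 TPM. For CA1 and CA3 pyramidal neurons 0 of 6 markers were called, for GABAergic neurons 1 was higher and 1 lower of 6, for choroid plexus 1 of 6 was higher and for blood 0 of 5 were called. The Set A medians were -0.40 for oligodendrocytes, -0.31 for astrocytes, -0.28 for microglia, 0.52 for endothelium and 0.35 for granule neurons. They were -0.39 for pyramidal neurons, -0.09 for GABAergic neurons, -0.44 for choroid plexus and 0.22 for blood. The summed choroid plexus markers were at 214 TPM in p16 KO CTL replicate 7, the library highest for 56 members, against 17.4 to 63.3 TPM in the other 15 libraries. No marker in these lists stayed under 1 TPM in every library. In Set B 3.05% of all tested genes were higher and 3.59% lower. There the marker medians were 0.41 for oligodendrocytes (1 of 6 higher), 0.51 for CA1 and CA3 pyramidal neurons (0 called) and 0.26 for astrocytes (1 higher). They were 0.20 for microglia (2 higher), -0.31 for endothelium (0 called) and -0.15 for granule neurons (0 called). The part of cell makeup in the values of the members in Sets A and B was not tested.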

How the data were processed

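RNA of dissected dentate gyri was sequenced in 16 libraries of 2 pooled mice. Per the methods, the authors trimmed reads with Cutadapt 1.11 and ERNE, aligned them with STAR (mm10) and estimated gene abundance in StringTie. The deposited TPM values are corrected for length and scaled to a common total; the deposited FPKM values come from the same run and served as an alternative; the deposited coverage (a signal per base) gave relative depth only. The tables hold no counts. Here, TPM was summed per gene name, scaled per library by its median ratio to the geometric mean of all libraries (13226 genes, minimum 1 TPM), and put on a log2 scale after adding 0.1; limma 3.58.1 (R 4.3.3, moderated variances with a trend) then tested 17317 genes whose average reached 0.1 TPM. Fold changes are on that scale, which understates low genes. Each set used 8 libraries and the interaction all 16, with Benjamini-Hochberg adjustment over all genes and no covariates. The exact permutation test covered 35 splits. The fits were tested on simulated data. Nothing states that pools shared no litter or batch, and p-values measure the spread between these pools.

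Named genes were the 2 highest members of each complex, up to 3 of smallest p per complex and comparison, all of complex II, the isoform families, and members past the adjusted threshold or called against the majority; others named (Ndufv2, Ndufs5, Ndufa6, Ndufb4 and Atp5sl) were chosen after their values were seen. The members and lists were chosen with earlier results of these data known. Alternatives were other scalings, pseudocounts (1 and 0.01), filters (a mean of 1 TPM or none), FPKM, a joint fit, no trend, the highest entry per name, the share of scaled TPM, a nuclear RNA covariate and leaving out libraries.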

Additional observations from a re-analysis of the deposited data

Results flagged for a closer look

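For 6 of 83 members the test of the difference between genotypes in the response to running gave an unadjusted limma p under 0.05, all of them lower, where 2.47% of all tested genes were lower and 3% higher, and none passed the adjustment (adjusted p = 0.798): -0.25 for Ndufa7, -0.34 for Cox7c, -0.33 for Ndufa2, -0.30 for Atp5g1, -0.19 for Uqcrc1 and -0.29 for Cox7b (log2 fold change in knockout minus that in wild-type mice). Of all 83 tested members 81 were below 0, against 46.8% of all tested genes. With the nuclear RNA score as a covariate 1 call was left, Ndufa7, where 2.08% of all tested genes were lower.

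A single library lay far from the other 3 of its group, by Dixon's criterion, for 13 of 180 combinations of a named member or a complex sum with a group. Chance gives about 1 in 20 for a single test. The combinations are not independent, since the complex sums hold the members, so the 13 cannot be set against that rate. Of the 13, 7 were p16 WT CTL replicate 2, which was high for Atp5h (706 TPM, the others 587 to 604), Atp5j (389, others 353 to 355), Cox7c (665, others 532 to 551), Cox8a (1244, others 1007 to 1037), Ndufa4 (1039, others 880 to 904), Uqcr10 (521, others 444 to 449) and Uqcr11 (598, others 510 to 522). This is the wild-type sedentary library with 1228 TPM of nuclear RNA and the highest coverage. In p16 KO CTL, replicate 5 was low for Cox7a2l (255 TPM, others 306 to 314) and Uqcr10 (441, others 507 to 517), replicate 6 was high for Cox6b2 (7.36, others 5.41 to 5.74) and replicate 8 was low for Atp5g2 (202, others 223 to 227). In p16 KO RUN, replicate 14 was high for Atp5g3 (816 TPM, others 758 to 766) and replicate 16 was low for Cox6a2 (1.94, others 3.44 to 3.65).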

How the results depend on the processing

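No paired analysis was possible because every replicate number occurs in 1 group only. Of 37 calls of named members in a comparison, none changed sign in any fit. The calls were picked for p under 0.05 and the refits reuse the same libraries, so a kept sign is no support for them. Over 443 refits with another setting 361 kept p under 0.05, and over 344 without a library 194 did. In brackets below is the share of all tested genes called in either direction in the same fit. In Set A, members called numbered 26 (18.5%), and 15 without the variance trend (16%). They numbered 4 with the nuclear RNA covariate (10.6%), with a median of -0.065. Without the 3 libraries low in nuclear RNA they numbered 3 (8.5%), with a median of -0.057. In Set B they numbered 6 (6.65%), and 10 with quantile normalization (7.29%) and 24 with all 16 libraries in 1 fit (12.8%). They numbered 3 without the trend (6.15%) and 3 with the covariate (4.56%). In Set C they were 1 (4.82%), and 2 with quantile normalization (5.16%) and 2 without the 3 libraries (5.91%). They were 0 without a filter (5.58%) or without the trend (4.67%). In Set D they were 4 (8.66%), and 7 with quantile normalization (9.14%), 8 with the covariate (12.8%) and 11 without the 3 libraries (11.2%). In the interaction they were 6 (5.47%), and 3 without the trend (5.21%) and 1 with the covariate (4.32%). Without a library in turn, calls ran from 7 to 61 in Set A, 0 to 43 in Set B, 0 to 2 in Set C, 4 to 11 in Set D, 1 to 4 in Set E and 1 to 30 in the interaction, and medians from -0.25 to -0.13, 0.11 to 0.22, -0.06 to 0.06, -0.05 to 0.06, -0.03 to 0.02 and -0.23 to -0.10. In the same order, shares of all tested genes called ran from 11.7% to 27.3%, 3.2% to 17.5%, 3.1% to 5.91%, 6.48% to 11.2%, 2.81% to 6.06% and 3.53% to 13.7%. With TPM as deposited, all tested genes split as 2500 higher and 709 lower in Set A, against 1857 and 1343 after scaling, and as 336 and 777 in Set B, against 529 and 622; members then gave 0 higher and 20 lower in Set A. The causes were not tested. Depth per gene is unknown, which limits the isoforms under 10 TPM most.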
